A study of Mus musculus with 4 samples.

Results

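The nicotinic acetylcholine receptor subunits of neurons were followed in tissue holding the thalamus and the hypothalamus of mice at postnatal day 14. The genes are Chrna3, Chrna4, Chrna5, Chrna6, Chrna7, Chrnb2, Chrnb3 and Chrnb4, a list of 8 taken as neuronal subunits of thalamus and habenula. The list was chosen with earlier results of these data known. Probes were assigned to them through the RefSeq accession printed for each probe, which gave 12 probes of the 41174 on the array and at least 1 for each of the 8 genes. Of these genes 3 passed the detection filter and entered a comparison of 21426 genes. The other 5 were not well above background in both samples of either group. Dark-reared mice came from dams moved into a cage covered with thick black plastic 1 to 4 days before delivery, had care given in dim red light, and remained in the dark until sampling. Control mice lived in standard cages under a 12:12 light cycle. Each group had 2 samples called biological replicates in the labels, which give neither strain, sex nor the number of animals behind a sample, and each sample was hybridised to 1 one-colour (Cy3) array. The comparison addresses how visual deprivation from birth affects transcripts of this tissue.

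Nicotinic receptors are pentameric cation channels opened by acetylcholine. Receptors built from the products of Chrna4 and Chrnb2 are the common high-affinity type of the brain and are dense in the thalamus. The product of Chrna7 can form a channel by itself, with high calcium permeability. Chrna3, Chrnb4 and the accessory subunit gene Chrna5 are known for strong expression in the medial habenula, and Chrna6 and Chrnb3 for midbrain dopamine neurons and retinal ganglion cells. In the RefSeq annotation Chrna5, Chrna3 and Chrnb4 are neighbours on chromosome 9, with Chrna5 and Chrna3 overlapping, and Chrnb3 and Chrna6 are neighbours on chromosome 8. No other pair of members was adjacent.

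The 4 arrays were alike in brightness, with 65.9% to 73.3% of probes well above background and no saturated spot. Each level is given in log2 after subtracting the 75th percentile of its array, so that 0 is a probe at that percentile. The lowest level well above background was -5.15 and -5.05 in dark-reared 1 and 2, against -5.20 in control 1 and -4.45 in control 2. Control 2 also had the smallest share of probes well above background. A level of one probe cannot be compared with that of another, and comparisons are made within a probe. Dark-reared 2 and control 2 lay on the same slide, while dark-reared 1 and control 1 each had a slide of their own. With 2 samples in each group, 0.333 is the smallest p that a two-sided exact permutation test allows, and p-values measure only the spread between these samples. Markers of the labelled tissue were well above background on all arrays for 9 of 9 thalamus and 7 of 11 hypothalamus genes, and so were 5 of 5 striatum, 5 of 6 cortex and hippocampus and 4 of 4 choroid plexus genes. The samples differed in these markers. The mean deviation of the 7 hypothalamus markers tested from their 4-array mean was -1.92 in dark-reared 1 and 0.47 in dark-reared 2, against 1.51 in control 1 and -0.07 in control 2. Oxt, the oxytocin gene of hypothalamic neurons, was at -3.31 in dark-reared 1 and 2.50 in dark-reared 2, against 3.97 in control 1 and 2.38 in control 2. The choroid plexus markers deviated by 1.01 and 0.25 in dark-reared 1 and 2, against 0.83 and -2.08 in control 1 and 2.

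None of the 3 measurable subunit genes differed between dark-reared and control mice beyond the spread of the samples. Chrna4, Chrnb2 and Chrna7 all had a lower mean in dark-reared samples, with log2 differences of -0.56, -0.23 and -0.11, and in all of them the samples of both groups overlapped. In limma 0 of the 3 passed the threshold of 0.05 after Benjamini-Hochberg adjustment, as did 0 of all 21426 genes (0%), of which 267 had an unadjusted p under 0.05 (183 with a trended, robust variance), with 0.302 as the lowest adjusted p. Groups that did not overlap were found for 0 of the 3 members, against 19.1% of all genes tested. The median difference was -0.23 over the 3 members and -0.01 over all genes.

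The promoter sequences of these 3 genes are shown because they are the only members with a signal on every array, and because Chrna4 and Chrnb2 followed the same order of samples while Chrna7 did not. Each window holds the 250 bases before the RefSeq start on the gene's own strand in assembly GRCm38.p6. That of Chrna4 is chr2:181039178-181039427, that of Chrnb2 chr3:89764633-89764882 and that of Chrna7 chr7:63212527-63212776, all on the minus strand. Capitals mark matches on either strand to the GC box GGGCGG and to the TCF/LEF core CTTTGA.
Chrna4: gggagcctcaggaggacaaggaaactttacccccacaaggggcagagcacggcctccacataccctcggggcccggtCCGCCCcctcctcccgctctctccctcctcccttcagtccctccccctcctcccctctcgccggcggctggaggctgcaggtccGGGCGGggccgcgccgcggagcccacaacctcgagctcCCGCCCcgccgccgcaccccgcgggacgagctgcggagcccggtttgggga
Chrnb2: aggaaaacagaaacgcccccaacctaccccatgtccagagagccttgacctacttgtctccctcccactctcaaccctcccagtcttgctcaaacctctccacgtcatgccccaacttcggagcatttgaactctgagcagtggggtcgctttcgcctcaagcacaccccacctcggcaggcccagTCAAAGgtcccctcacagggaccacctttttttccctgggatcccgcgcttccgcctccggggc
Chrna7: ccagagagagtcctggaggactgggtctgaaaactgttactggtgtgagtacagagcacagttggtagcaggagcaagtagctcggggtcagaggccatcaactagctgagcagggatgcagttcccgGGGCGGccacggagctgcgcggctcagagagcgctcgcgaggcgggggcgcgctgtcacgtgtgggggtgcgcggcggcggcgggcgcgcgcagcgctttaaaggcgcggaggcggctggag

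The windows differed in base composition. Chrna4 had 74.4% G and C, 24 CpG dinucleotides and 3 GC boxes, and Chrna7 had 67.2% G and C, 25 CpG dinucleotides and 1 GC box. Chrnb2 had 59.6% G and C, 10 CpG dinucleotides and no GC box, while its window held the 1 TCF/LEF core seen among the 3. The median over all 32851 windows in the table was 52.4% G and C and 6 CpG dinucleotides. A GC box on either strand was in 32.7% of those windows and a TCF/LEF core in 13.8%. No GC box overlapped a TCF/LEF core in these windows, and the TATA motif TATAAA, held by 12.4% of all windows, was in none of the 3. A link between the motifs of these windows and the signals of the genes was not tested. Of the members that did not pass the detection filter, promoter windows were at hand for Chrna3, Chrna5 and Chrnb4.

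Chrna4 encodes the alpha subunit that pairs with the Chrnb2 product in the main thalamic receptor. Its brighter probe (A_52_P350750, RefSeq transcript NM_015730) had log2 signals of -1.86 in dark-reared 1 and -0.38 in dark-reared 2, against 0.13 in control 1 and -1.25 in control 2. Each group thus held 1 high and 1 low sample, and the highest and lowest of the 4 were 3.96-fold apart. The mean was -1.12 ± 1.05 in dark-reared samples and -0.56 ± 0.97 in controls (SD, n = 2 each), a difference of -0.56 (limma, standard error 0.73, adjusted p 1.00). Within the slide shared by both groups the difference had the opposite sign, 0.87. It was also above 0 without dark-reared 1 (0.18) and without control 1 (0.13), and it was -1.30 without dark-reared 2 and -1.25 without control 2.

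The other Chrna4 probe gave the same order of samples. A_51_P104487, of the same transcript, had log2 signals of -2.90 and -2.62 in dark-reared 1 and 2, against -1.66 and -2.77 in control 1 and 2. Here control 1 stood alone on the high side and the remaining 3 samples lay within a narrow band. Tested as a probe of its own it gave a difference of -0.55 (standard error 0.43). The shared slide alone gave 0.15. The error that the scanner software gave for a spot of these 2 probes was at most 12.5% of the signal.

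Chrnb2, which encodes the beta subunit that partners the Chrna4 product, had the smallest spread of the 3. Its only probe (A_52_P222026, NM_009602) had log2 signals of -0.24 in dark-reared 1 and 0.50 in dark-reared 2, against 0.57 in control 1 and 0.15 in control 2. The order of the samples was that of both Chrna4 probes, with control 1 highest, then dark-reared 2, control 2 and dark-reared 1. Dark-reared 2 and control 1 were close to each other, and the whole range was 1.76-fold. The mean was 0.13 ± 0.52 in dark-reared samples and 0.36 ± 0.30 in controls (SD, n = 2 each), a difference of -0.23 (limma, standard error 0.33, adjusted p 1.00). The sign turned within the shared slide (0.35) and without dark-reared 1 (0.14), the difference was -0.02 without control 1, and it was -0.60 without dark-reared 2 and -0.44 without control 2.

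Chrna7, the subunit of the homomeric receptor, ran the other way across the samples. Its detected probe (A_51_P108228, NM_007390) had log2 signals of -2.52 in dark-reared 1 and -3.77 in dark-reared 2, against -3.41 in control 1 and -2.66 in control 2. Dark-reared 1, the lowest sample for Chrna4 and Chrnb2, was the highest here, and dark-reared 2 was the lowest. The mean was -3.14 ± 0.88 in dark-reared samples and -3.03 ± 0.53 in controls (SD, n = 2 each), a difference of -0.11 (limma, standard error 0.54, adjusted p 1.00). Within the shared slide it was -1.11, and without dark-reared 1 or control 1 it was -0.73 or -0.48. Without dark-reared 2 or control 2 the sign turned, to 0.52 or 0.27. The other Chrna7 probe (A_52_P648773) was well above background on none of the arrays.

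**Figure D1:**
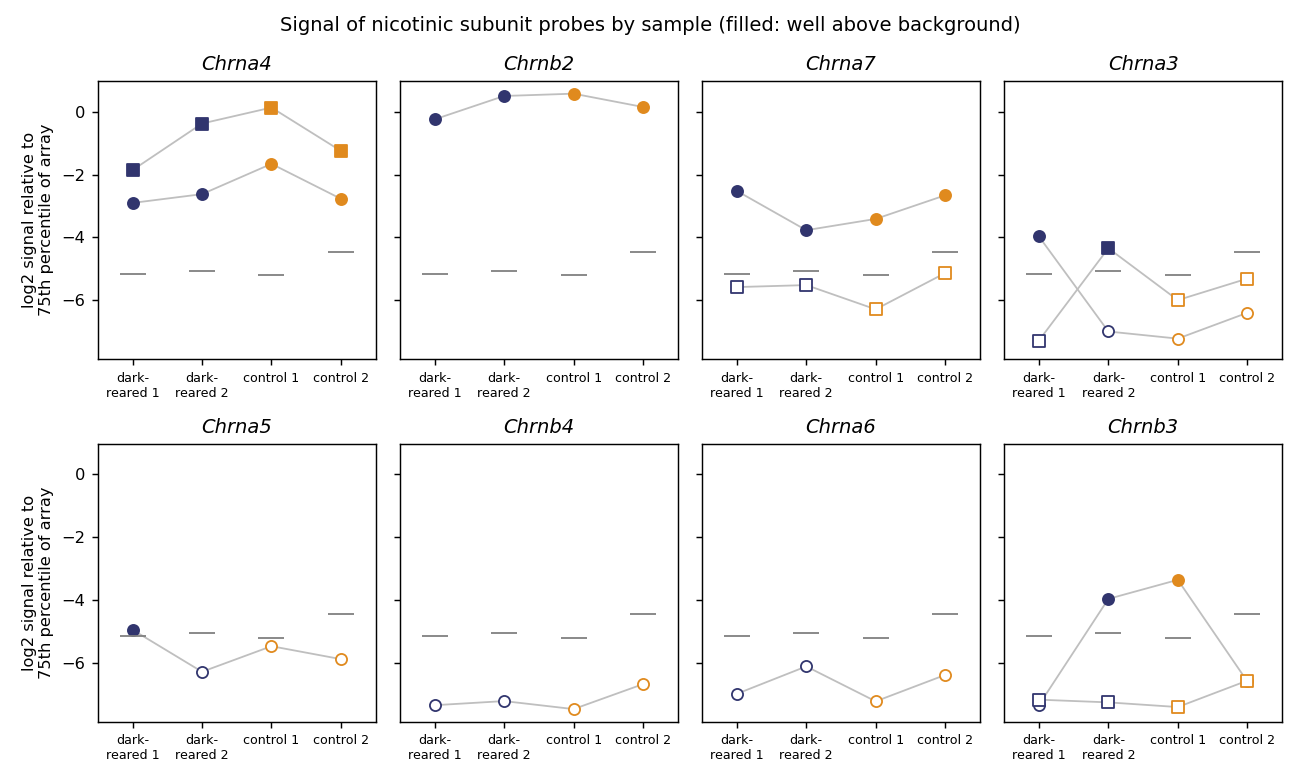
Log2 signal relative to the 75th percentile of the array for the 12 probes of the 8 subunit genes, by sample (blue, dark-reared; orange, control); squares mark the second probe of a gene, filled points are well above background and grey dashes give the lowest signal so called on each array. Chrna4, Chrnb2 and one Chrna7 probe are filled on all 4 arrays, while Chrna6 and Chrnb4 are open on all of them.

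The differences between samples of one group were larger than for most genes. Over all genes tested the median absolute log2 difference was 0.26 between the 2 dark-reared samples and 0.21 between the 2 controls. Dark-reared 1 minus dark-reared 2 was -1.48 for Chrna4, -0.74 for Chrnb2 and 1.25 for Chrna7. Control 1 minus control 2 was 1.38, 0.42 and -0.75 for the same genes. With the probes in the fit, differences inside the groups were thus larger in size than the difference between the groups for each gene. The dimmer Chrna4 probe gave -0.28 for dark-reared 1 minus dark-reared 2 and 1.11 for control 1 minus control 2, against -0.55 between groups. Its dark-reared samples thus differed by less than the groups did.

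Thalamus markers moved with Chrna4 and Chrnb2 across the samples. The mean deviation of the 9 thalamus markers from their 4-array mean was -1.27 in dark-reared 1 and 0.53 in dark-reared 2, against 1.17 in control 1 and -0.43 in control 2, and their summed signal in log2 was 3.04 and 4.80 in dark-reared 1 and 2, against 5.70 and 3.67 in control 1 and 2. The deviations of the brighter Chrna4 probe had the same signs in all 4 samples. These signs were not particular to thalamus markers, since the mean deviations of hypothalamus, habenula and astrocyte markers had them too. Those of the astrocyte markers were -0.15 and 0.25 in dark-reared 1 and 2, against 0.08 and -0.18 in control 1 and 2. The dimmer Chrna4 probe differed in sign in dark-reared 2, where it lay below its own mean. The order of samples of Chrna4 and Chrnb2 was shared by 3 of the 9 thalamus markers and by 3 of 7 hypothalamus markers, against 6.03% of all genes tested. The part of the marker content in the Chrna4 and Chrnb2 values was not tested, and in bulk tissue fewer cells of a type and less RNA per cell cannot be told apart.

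The gene nearest in pattern to the brighter Chrna4 probe was Tcf7l2, a transcription factor of developing thalamic neurons. It is also 1 of the 9 thalamus markers. Likeness was the root mean square difference of the 4 log2 values, each gene centred on its own mean, over 13525 named genes well above background on all arrays. Tcf7l2 was at 0.85 in dark-reared 1 and 2.34 in dark-reared 2, against 2.93 in control 1 and 1.46 in control 2. It lay 0.04 from that Chrna4 probe, and the other Chrna4 probe was not compared in this way. The next gene, Slc41a3, a magnesium transporter gene, lay at 0.08, and 4 genes in all lay within 0.1. For Chrnb2 the nearest were Lrsam1, an E3 ubiquitin ligase gene (0.01), and Rnf128 (0.02), with 132 genes within 0.1. For Chrna7, Ccdc88c was among the nearest (0.05), with 33 genes within 0.1. These are descriptions over 4 samples.

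The mean deviations of striatum and of microglia markers had the same sign as those of Chrna7 in each of the 4 samples. So had the mean deviations of the genes of acetylcholine synthesis, transport and breakdown. These were 0.16 and -0.24 in dark-reared 1 and 2, against -0.12 and 0.19 in control 1 and 2. The mean deviation of all 5 striatum markers was 0.90 in dark-reared 1 and -0.87 in dark-reared 2, against -0.68 in control 1 and 0.65 in control 2. Their summed signal in log2 was 6.20 and 4.35 in dark-reared 1 and 2, against 4.59 and 5.87 in control 1 and 2. Chrna7 deviated in the same directions, and 3 of the 5 had its exact order of samples, which 8.31% of all genes tested had. The 4 microglia markers deviated less, by 0.24 and -0.21 in dark-reared 1 and 2, against -0.32 and 0.28 in control 1 and 2, and 1 of them had the order of Chrna7. Oligodendrocyte markers (4 of 4 tested) deviated by 0.81 and -1.59 in dark-reared 1 and 2, against 0.81 and -0.03 in control 1 and 2, and did not share that order. The part of striatal or microglial RNA in the Chrna7 values was not tested.

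**Figure D2:**
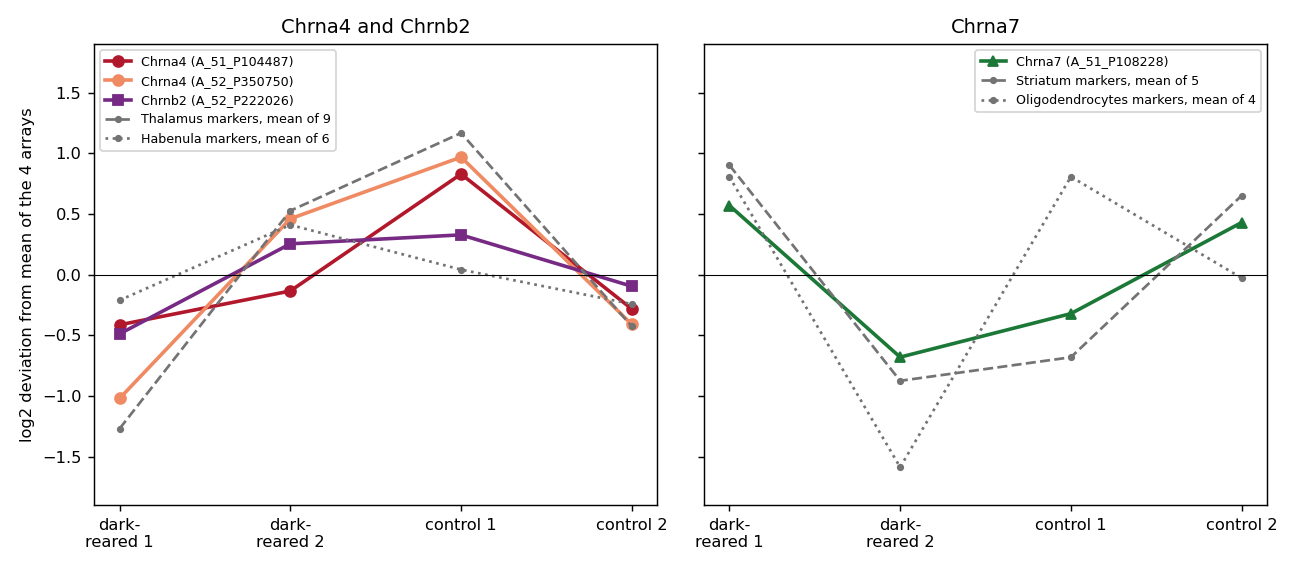
Log2 deviation from the mean of the 4 arrays for the Chrna4 and Chrnb2 probes with the mean of thalamus and habenula markers (left), and for Chrna7 with the mean of striatum and oligodendrocyte markers (right), by sample. Chrna4 and the thalamus markers are lowest in dark-reared 1 and highest in control 1, and Chrna7 and the striatum markers are highest in dark-reared 1 and lowest in dark-reared 2.

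The habenular subunits Chrna3, Chrna5 and Chrnb4 were at the edge of detection or under it. The spot of Chrnb4 (A_51_P373629, NM_148944) had log2 signals of -7.34 and -7.21 in dark-reared 1 and 2, against -7.46 and -6.67 in control 1 and 2, none of them well above background. Its raw spot medians were 61.5 and 47 in dark-reared 1 and 2, against 62 and 62 in control 1 and 2, where local backgrounds were 39.5 and 38, against 35 and 41. The error given by the scanner software was 99.5% of the processed signal on all arrays. A level for Chrnb4 was therefore not detectable on these arrays, and no difference is given.

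Chrna3 was well above background in a single sample for each probe, and the probes did not name the same sample. A_51_P203200 had a log2 signal of -3.97 in dark-reared 1, where it was well above background, and -6.99 in dark-reared 2, against -7.21 in control 1 and -6.39 in control 2. A_52_P577705, of the same transcript NM_145129, had -7.27 in dark-reared 1 and -4.34 in dark-reared 2, where it was well above background, against -5.99 in control 1 and -5.31 in control 2. Where one probe was high the other was not well above background, so the probes disagreed and no level is given for the gene. Chrna5 (A_52_P213550, NM_176844) was well above background in dark-reared 1 at -4.94 and not in dark-reared 2 at -6.28, nor in the controls at -5.46 and -5.87. The lowest signal called well above background was -5.15 in dark-reared 1, so Chrna5 just passed there.

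Other habenula markers were measured in the same samples. Of 8 listed, 6 were tested, all well above background on 4 arrays, while Gpr151 was on none and Tac2 had no named probe. Of the 6, 5 had a higher and 1 a lower mean in dark-reared samples, 0 passed in limma, and the median difference was 0.27. The 1 lower mean was that of Pou4f1, which encodes a transcription factor of habenular neurons. It had log2 signals of -2.08 and -2.13 in dark-reared 1 and 2, against -1.84 and -1.91 in control 1 and 2. Its difference was -0.23 (limma standard error 0.14). Groups did not overlap for Pou4f1 alone, 1 of the 6, against 19.1% of all genes tested. A second Pou4f1 probe (A_52_P1171614) was well above background on none of the arrays. Gng8, a G protein subunit gene of the medial habenula, had -1.54 and -0.57 in dark-reared 1 and 2, against -1.05 and -1.74 in control 1 and 2. The mean deviation of the 6 was -0.21 in dark-reared 1 and 0.41 in dark-reared 2, against 0.04 in control 1 and -0.24 in control 2. Whether habenular content had a part in the values of Chrna3, Chrna5 and Chrnb4 was not tested.

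Chrna6 and Chrnb3, the subunit genes known from dopamine neurons, were mostly under detection. Chrna6 (A_51_P499653, NM_021369) was well above background on none of the arrays, at -6.98 and -6.10 in dark-reared 1 and 2, against -7.21 and -6.38 in control 1 and 2. Chrnb3 had probes for 2 RefSeq transcripts. The probe for NM_173212 (A_51_P161793) was well above background in 1 sample of each group, with log2 signals of -7.33 in dark-reared 1 and -3.96 in dark-reared 2, against -3.35 in control 1 and -6.58 in control 2. Those samples were also the higher ones for Chrna4 and Chrnb2. The values in the other 2 samples were not well above background, so no fold is given. The probe for NM_027454 (A_52_P358651) was well above background on none of the arrays. Of 7 dopamine neuron markers 6 were tested, En1 being not well above background. The mean was lower in dark-reared samples for 5 of the 6, and for 11106 of all 21426 genes tested. Groups did not overlap for 3 of the 6, against 19.1% of all genes tested, and 0 of the 6 passed in limma. The mean deviation of the 6 was -0.37 and -0.14 in dark-reared 1 and 2, against 0.31 and 0.19 in control 1 and 2. The part of these markers in the Chrna6 and Chrnb3 values was not tested.

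Genes of the rest of the cholinergic pathway were counted for comparison. Of 31 listed, 23 were tested, 11 with a higher and 12 with a lower mean in dark-reared samples, and 0 passed in limma or had an unadjusted p under 0.05. Groups without overlap were found for 0 of the 23, against 19.1% of all genes. The median difference was -0.0024 over the 23, against -0.0065 over all genes, and it was 0.22 within the shared slide.

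Enzymes and transporters of acetylcholine gave 3 higher and 3 lower means among 6 tested. Ache encodes the enzyme that breaks down acetylcholine. Its log2 signals were 1.26 and 2.51 in dark-reared 1 and 2, against 2.43 and 2.10 in control 1 and 2. It was lowest in dark-reared 1 as Chrna4 was, and so were 28.4% of all genes tested. Chat, the enzyme of acetylcholine synthesis, had -3.05 and -3.26 in dark-reared 1 and 2, against -3.69 and -3.18 in control 1 and 2. Slc5a7, the choline transporter of cholinergic terminals, had a difference of 0.40 (standard error 0.42). Slc44a1, a choline transporter that is not limited to neurons, had a difference of -0.51 (standard error 0.70) and was lowest in dark-reared 2. Bche was not tested and Colq had no named probe.

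Muscarinic receptors, the G protein-coupled receptors of acetylcholine, had a lower mean in dark-reared samples in 4 of 4 tested by the brightest probe. The mean was also lower for 11106 of all 21426 genes tested. The differences ran from -0.06 for Chrm3 and -0.07 for Chrm1 to -0.25 for Chrm4 and -0.28 for Chrm5. All were smaller in size than their standard errors of 0.38, 0.23, 0.30 and 0.58. A second Chrm1 probe (A_52_P393577) had the opposite sign, 0.13 (standard error 0.58), and was not well above background in dark-reared 2. A second Chrm4 probe (A_51_P418325) differed by -0.59 (standard error 0.62). Chrm5 had log2 signals of -4.22 and -3.09 in dark-reared 1 and 2, against -2.82 and -3.92 in control 1 and 2, the order of samples seen for Chrna4 and Chrnb2. Chrm4, a receptor of striatal neurons, had -2.75 and -3.14 in dark-reared 1 and 2, against -3.01 and -2.37 in control 1 and 2. Chrm2 was not well above background in both samples of either group.

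Chaperones and Ly6 proteins that bind nicotinic receptors were counted in the same way. Of 10 listed, 9 were tested, 5 with a higher and 4 with a lower mean in dark-reared samples and a median difference of 0.11. Tmem35a, a chaperone for assembly of nicotinic receptors, had log2 signals of 2.22 and 2.68 in dark-reared 1 and 2, against 2.31 and 2.37 in control 1 and 2. Lynx1, a membrane-bound brake on nicotinic receptors that is known from visual cortex plasticity, had 4.88 and 4.35 in dark-reared 1 and 2, against 5.09 and 4.70 in control 1 and 2, a difference of -0.28 (standard error 0.27). Lypd6 and Lypd1, further Ly6 family genes, differed by 0.32 (standard error 0.50) and 0.21 (standard error 0.29), and a second Lypd6 probe had the opposite sign, -0.68. Ric3, another chaperone, differed by -0.22 (standard error 0.21) with its brightest probe and by 0.04 and -0.17 with its other detected probes.

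**Figure D3:**
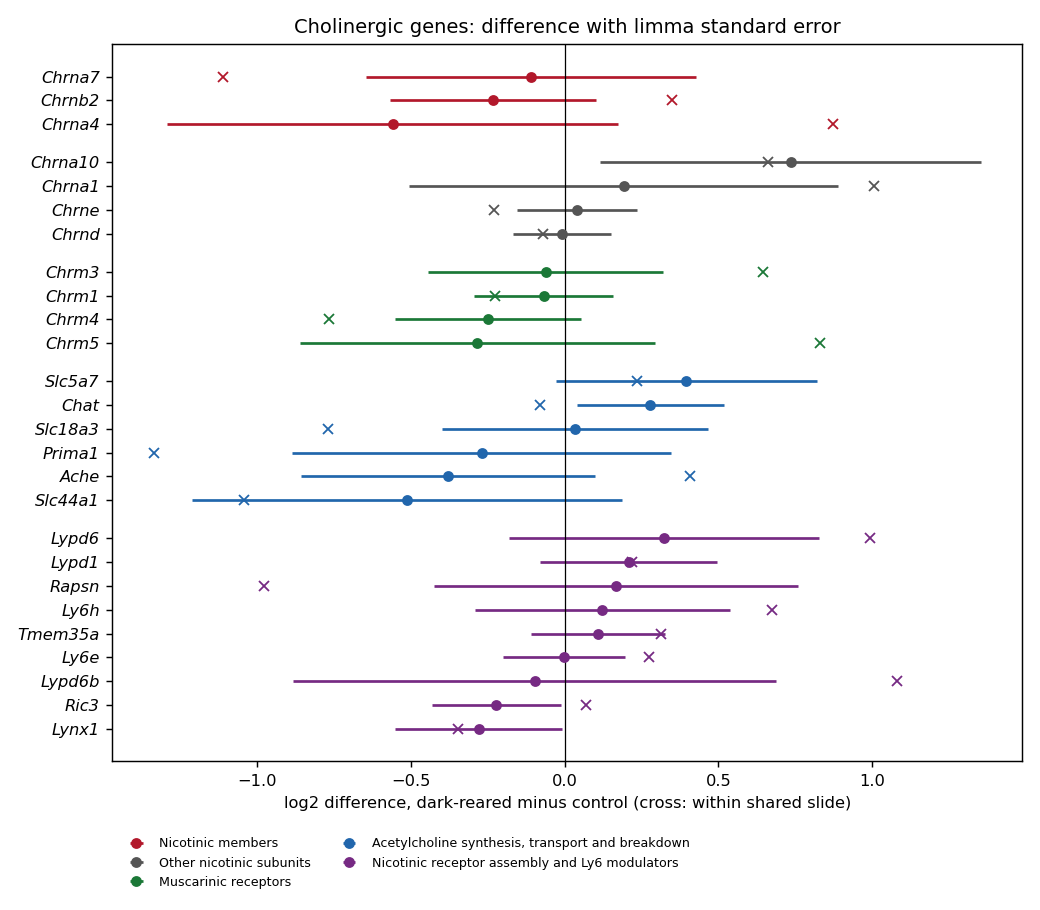
Log2 difference, dark-reared minus control, for the 3 tested members and 23 other tested cholinergic genes, as points with the limma standard error, and within the shared slide as crosses. Points lie between -0.56 (Chrna4) and 0.73 (Chrna10), and for Chrna4 and Chrnb2 the cross lies on the other side of 0.

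**Figure D4:**
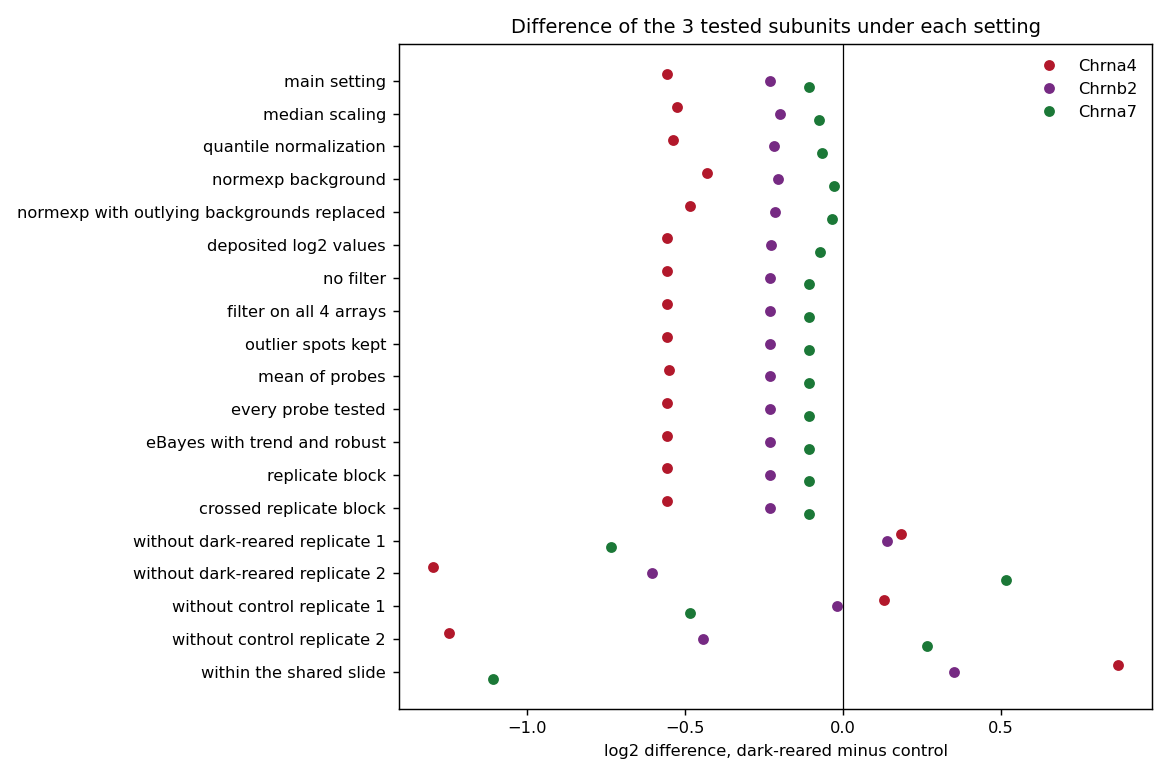
Log2 difference, dark-reared minus control, of Chrna4, Chrnb2 and Chrna7 under each processing setting, 1 row a setting. The values stay below 0 under the scaling and background settings, with Chrna7 at -0.03 and Chrna4 at -0.43 under normexp. Filter, variance and block settings leave them as in the main setting. The values cross 0 when single samples are left out, where Chrna4 lies between -1.30 and 0.18. Within the shared slide Chrna4 lies at 0.87 and Chrnb2 at 0.35, above 0, and Chrna7 at -1.11.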

How the data were processed

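Total RNA was hybridised to 1-colour Agilent arrays, 1 per sample. Per the file headers, the authors' spot intensity values came from Feature Extraction of version 10.7.3.1, which the submitters' processing notes give as 10.7. The processed signal is background-subtracted and detrended, with no scaling between arrays. The deposited log2 values of the authors had a median of 6.84 on each array; their normalization method is not stated here by any label or header, and they served as an alternative. The files' 0 or 1 detection flags come from the same software. For the alternative with normexp (offset 50), median spot and background signals were used, mean spot signals not being among the columns at hand.

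Here outlier spots (79 to 103 an array) were dropped, spots of a probe averaged, and each array's 75th percentile (764 to 794) subtracted in log2. Names came from RefSeq accessions in a table of assembly GRCm38.p6, used for names and neighbours; 26918 probes got a symbol. The files' own annotation refers to another build, so no gene coordinates are given, and promoter windows carry the build of their RefSeq table. Kept were probes well above background on each array of at least 1 group (28444 of 41174), the brightest probe stood for a gene, and limma 3.58.1 in R 4.3.3 (lmFit, eBayes, two-sided, Benjamini-Hochberg over 21426 genes, threshold 0.05) compared dark-reared with control. The fit was tested on simulated data. No member had a missing value. Members, lists and settings were chosen with earlier results of these data known. All 8 members are named with every probe; of the other cholinergic genes, up to 4 a group with the largest absolute difference are named, and further ones named were chosen after their values were seen. The number of arrays and the signal over background limit the precision. The deviations of same-numbered samples were weakly negatively correlated (r = -0.16 across genes), so the numbers were not taken as pairs. Some genes that the naming rule or a marker list holds are not reported here by name.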

Additional observations from a re-analysis of the deposited data

How the results depend on the processing

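The 3 tested subunit genes had an adjusted p that rounds to 1.00, and 0 genes passed, under each of 17 other settings; in 4 of these 1 sample is left out, the lone sample is assumed to vary like the other group, and the p says nothing of stability. Their signs held under scaling, background and probe-averaging settings, with Chrna7 at -0.03 and Chrna4 at -0.43 under normexp. The filter, variance and block settings use the same values for these genes and left the differences unchanged, so they do not check the sign. Without 1 sample the difference of Chrna4 ran from -1.30 to 0.18, of Chrnb2 from -0.60 to 0.14 and of Chrna7 from -0.73 to 0.52, and within the shared slide Chrna4 was at 0.87 and Chrnb2 at 0.35. Members with a lower mean numbered 6 of 8 without the filter (a count that includes Chrna3, Chrnb3 and Chrnb4, which were well above background in at most 2 samples), 1 of 3 within the shared slide and 1 to 2 of 3 without 1 sample. Genes at least 2-fold apart without overlap numbered 257, and 14 with normexp, 20 with normexp after outlying backgrounds were replaced, 810 without the filter, 78 with detection on all 4 arrays and 528 to 884 without 1 sample; the last leaves fewer samples to overlap, and the cause of the others was not tested. The replicate number as a block left Chrna4 at -0.56 and 0 genes past the threshold; crossed numbers, added after seeing the data, also gave 0. The slide as a random block was not run to a value, since its correlation could be estimated for 0 genes, and as a fixed term it leaves the shared-slide difference with no test. Signal over background kept 5 of 8 members from being tested.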

Other observations

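Subunits of the muscle-type nicotinic receptor gave signal in this brain tissue. Chrnd had log2 signals of -2.63 and -2.55 in dark-reared 1 and 2, against -2.68 and -2.48 in control 1 and 2, well above background on all 4 arrays. The brighter Chrne probe was well above background on all 4 arrays too. It lay at -1.78 and -2.08 in dark-reared 1 and 2, against -2.09 and -1.85 in control 1 and 2, a difference of 0.04. A second Chrne probe (A_52_P522601) differed by -1.41 (standard error 0.84). That difference includes the dark-reared 2 value, which was not well above background. Rapsn, which clusters these receptors at the neuromuscular junction, differed by 0.17 (limma standard error 0.59), highest in dark-reared 1 and lowest in control 1 at -4.31. Chrna1 was well above background on 3 arrays, and the single Chrnb1 probe on none. Chrna10, known from hair cells of the ear, differed by 0.73 (limma standard error 0.62), with -3.88 and -2.76 in dark-reared 1 and 2, against -4.69 and -3.42 in control 1 and 2, and did not pass. Binding of these probes to other transcripts was not tested.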
